A study of Homo sapiens with 11 samples.

Results

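Cells of A549, a long-established line from a human lung adenocarcinoma, were compared after 2 weeks and after 48 hours of exposure to cigarette smoke condensate (CSC), the tar-like material collected from smoke and dissolved for use in culture. The comparison set the 3 libraries titled as CSC for 2 weeks against the 3 titled as CSC for 48 hours. These are 6 of the 11 RNA sequencing libraries of the series. The dose was written as 20uM in both groups. It appears here as labelled, although a mixture has no molar concentration. The other 5 libraries came from the same line given the vehicle DMSO. Of these, 2 were treated for 48 hours (replicates 2 and 3) and 3 for 2 weeks. They measured the change between the times without condensate, and their spread also entered the tests of the CSC comparison. The titles give no passage or batch. Duration thus cannot be told apart from other differences between the 48-hour and the 2-week libraries. The labels describe no genetic change to the line and do not say that the replicates were separate cultures. The p-values therefore measure only the spread between these libraries, which may be technical.

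Smoke condensate carries polycyclic aromatic compounds that bind the aryl hydrocarbon receptor (AHR), a cytosolic sensor that moves to the nucleus and switches on the CYP1 oxidases and its own repressor. Reactive components of smoke also act through NRF2, which controls glutathione and NADPH enzymes, and through NF-kappaB, which controls the chemokines that airway epithelium uses to call in neutrophils and monocytes. Growth signalling through the EGF receptor and the contact-sensitive coactivators YAP and TAZ shapes how such epithelial cells divide and spread.

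Expression was given as FPKM, fragments per kilobase of transcript relative to the mapped fragments of the library. The sums of FPKM lay between 338507 and 353627 in the CSC libraries of 48 hours and between 387870 and 484053 in those of 2 weeks. CSC 2 weeks replicate 2 was the deepest library, at 3.141 relative to the shallowest from the steps among low values, and the other 10 lay between 1.00 and 1.456. The depth in fragments is unknown. On the principal components of all 11 libraries, CSC 48 hours replicate 3 stood apart from its group on the third component (29.72). Summed epithelial, fibroblast and leukocyte markers were higher in every late than in every early CSC library, and endothelial markers (2.57 to 4.30 FPKM and 3.49 to 4.01) overlapped. Epithelial markers (7 of 8 at an FPKM of 1 or more) summed to 2131 to 2447 FPKM at 48 hours and 2937 to 4027 at 2 weeks. KRT7, KRT8 and KRT18 made up most of this sum. Early and late values separated for KRT8 and KRT18 and overlapped for KRT7, KRT19, EPCAM, CDH1, CLDN4 and ESRP1. Fibroblast markers summed to 6.10 to 7.82 at 48 hours and 11.2 to 13.1 at 2 weeks, with COL1A2, DCN and FAP at 0 in all libraries. Leukocyte markers summed to 6.83 to 7.85 and 9.59 to 12.4, mostly from CD68 and CD14. In DMSO the epithelial sum was also higher at 2 weeks (4272 to 4917) than at 48 hours (3021 to 3082), as were the fibroblast and leukocyte sums.

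Of 12271 genes tested, 1560 were higher and 178 lower in the 2-week CSC libraries than in the 48-hour ones, by limma with a Benjamini-Hochberg adjusted p under 0.05. That is 14.2% of the genes tested, 12.7% higher and 1.45% lower. Genes were tested if they reached 1 FPKM in 2 or more CSC libraries, a filter that 1 group alone could meet. All changes are given on the scale of log2(FPKM + 0.5), where those of weakly expressed genes come out too small. The median gene was 0.19 higher on this scale, and 77.5% of genes had a positive change, so the split between rises and falls depended on how the libraries were scaled. With median-of-ratios scaling the counts were 154 higher (1.26%) and 265 lower (2.16%), 3.42% together, with quantile normalization 129 and 229, and with a common sum of FPKM 86 and 468. A total of 68 genes were higher (0.554%) and 143 lower (1.17%) under the deposited scaling and all 3 of these. Those are termed scaling-independent, a criterion added after the data were seen. Each of the 3 other scalings gave fewer rises and more falls than the deposited one. The criterion was thus stricter for rises than for falls. In bulk RNA, fewer cells that express a gene and less RNA per cell cannot be told apart.

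The 3 late libraries were all above the 3 early ones for 28.7% of genes and all below for 4.43%. The counts also turned on single libraries. Without CSC 2 weeks replicate 1 they were 155 higher and 39 lower, without CSC 2 weeks replicate 3 604 and 99, without CSC 48 hours replicate 2 290 and 53, and without CSC 48 hours replicate 1 839 and 111. Leaving out CSC 2 weeks replicate 2, the deepest library, gave 2481 and 176. A DMSO library enters through the shared estimate of spread. Leaving 1 out gave 753 and 96 (without DMSO 2 weeks replicate 2) or 862 and 103 (without DMSO 2 weeks replicate 1). For each of the others it gave 1158 to 1178 higher and 131 to 149 lower. A fit of the 6 CSC libraries alone gave 57 higher and 21 lower. Short transcripts had the more positive changes: across the 11019 genes with an annotated length, the change and the length had a Spearman correlation of -0.219, as a description across genes that are not independent replicates. The same correlation for a single library's deviation from the mean was -0.376 in CSC 2 weeks replicate 1 and lay between -0.145 and 0.152 in the other 5 CSC libraries. With a trend on transcript length removed, 195 genes were higher and 269 lower, and 59 of 61 scaling-independent rises and 121 of 124 such falls that have a length were still called.

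Chemokine and cytokine genes had the lowest median change among the gene lists with at least 9 tested members. Of 13 tested members of a list of 26 inflammatory cytokines and chemokines, 9 were lower and 0 higher, where 1.45% of all genes were lower. The 9 were IL8, IL11, IL32, LIF, CCL2, CXCL1, CXCL2, CXCL3 and CXCL5. CXCL3 and IL8 were among the genes that met the filter only in the 48-hour group, where they were high. IL18, CSF1, TGFB1 and TGFB2 had changes between -0.17 and 0.29 that did not pass. The median change of the list was -1.38, against 0.19 for all genes. Of the 9, 7 were scaling-independent and the exceptions were IL32 and LIF. IL32 missed the threshold in 8 and LIF in 9 of the 11 fits with 1 library left out, each with a highest adjusted p of 0.128. The median of the list minus that of all genes ran from -1.60 without CSC 48 hours replicate 1 to -1.21 without CSC 48 hours replicate 3, the library with the highest median of the list.

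Among the members that fell, 5 are CXC chemokine genes that lie near one another on chromosome 4 and draw neutrophils through the receptors CXCR1 and CXCR2. The 120 bases before the start of each are shown because these genes fell together, read from RefSeq on GRCh38.p14 along the strand of the gene, with capitals on the letters GGAATTTCC, a motif of the type that NF-kappaB binds.
CXCL1, chr4:73869273-73869392, plus strand: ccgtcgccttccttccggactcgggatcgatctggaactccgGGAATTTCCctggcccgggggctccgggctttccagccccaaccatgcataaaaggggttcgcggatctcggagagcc
CXCL2, chr4:74099196-74099315, minus strand: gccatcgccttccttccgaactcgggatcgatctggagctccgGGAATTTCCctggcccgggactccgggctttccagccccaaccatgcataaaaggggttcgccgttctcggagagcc
CXCL3, chr4:74038690-74038809, minus strand: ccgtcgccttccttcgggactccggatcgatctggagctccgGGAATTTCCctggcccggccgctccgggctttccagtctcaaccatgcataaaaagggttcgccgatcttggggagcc
CXCL5, chr4:73998678-73998797, minus strand: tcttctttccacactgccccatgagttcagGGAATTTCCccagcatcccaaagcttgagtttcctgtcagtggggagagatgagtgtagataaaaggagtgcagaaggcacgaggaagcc
CXCL8 (IL8 in the files), chr4:73740449-73740568, plus strand: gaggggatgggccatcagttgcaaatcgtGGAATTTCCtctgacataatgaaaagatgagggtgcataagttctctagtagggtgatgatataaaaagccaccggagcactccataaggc
The motif starts 78, 77, 78, 90 and 91 bases before the start in this order. Searched on both strands in the 250 bases before the start, GGAATTTCC was present in 0.413% of 35116 promoter windows (145). Of the 13 tested list members, 9 matched a window and 5 held the motif, and IL11, IL32, TGFB1 and TGFB2 did not. The matches describe letters in these windows and not occupancy of a site, and CXCL1, CXCL2 and CXCL3 are close relatives whose promoters share much of their sequence.

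CXCL5 (hg19, chromosome 4, positions 74861359 to 74864416) stood at 44.5, 45.4 and 49.4 FPKM in CSC replicates 1 to 3 at 48 hours and at 11.3, 12.9 and 13.5 at 2 weeks. The groups lay far apart with little spread inside either. Its log2 change was -1.85 ± 0.11 (SE), with an adjusted p of 3.48e-06. CXCL5 also went from 56.6 and 68.6 to 24.0, 23.4 and 21.4 FPKM in DMSO, a log2 change of -1.42 (adjusted p = 1.92e-04).

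CCL2, the chemokine for monocytes (chromosome 17, positions 32582296 to 32584220), stood at 12.8, 16.6 and 14.5 FPKM at 48 hours and at 3.03, 2.20 and 2.09 at 2 weeks. All early libraries were above all late ones, and the log2 change was -2.37 ± 0.26 (adjusted p = 6.73e-04). In DMSO, CCL2 was at 5.94 and 2.27 FPKM at 48 hours and at 5.38, 7.20 and 4.42 at 2 weeks, where the groups overlapped. After 2 weeks the CSC libraries thus lay below every DMSO library of that time.

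CXCL3 went from 2.58, 2.69 and 4.65 FPKM to 0.713, 0.777 and 0.942, a log2 change of -1.50 ± 0.21 (adjusted p = 0.00387). CXCL1 went from 4.13, 2.48 and 7.46 to 1.28, 1.34 and 1.39 (-1.38 ± 0.27, adjusted p = 0.0157). CXCL2 went from 4.67, 6.71 and 19.7 to 2.03, 2.37 and 3.67 (-1.54 ± 0.38, 0.0261). The early and late values of these genes did not overlap, and CSC 48 hours replicate 3 was the highest library for each. IL8, which encodes interleukin 8, went from 2.13, 1.54 and 4.84 to 0.533, 0.308 and 1.02 (-1.50 ± 0.31, 0.0179). IL11, a cytokine of the interleukin 6 family, went from 5.40, 11 and 10.8 to 3.03, 2.60 and 3.47 (-1.38 ± 0.28, 0.0175). Without CSC 2 weeks replicate 1 the adjusted p was 0.0516 for CXCL1, 0.0950 for CXCL2, 0.0629 for IL8 and 0.0562 for IL11, and without CSC 48 hours replicate 2 it was 0.0515 for IL11. CD274, the immune checkpoint ligand PD-L1, met the filter only in the 48-hour group. It went from 1.06, 2.44 and 2.84 to 0.266, 0.353 and 0.473 FPKM (-1.53 ± 0.26, 0.01), again with no overlap. CCBE1, a secreted factor of lymphatic growth, also met the filter only in the 48-hour group. It went from 2.79, 5.02 and 2.58 to 0.729, 0.912 and 1.25 (-1.40 ± 0.23, 0.01). HDAC5, a histone deacetylase, went from 10.3, 10.8 and 9.40 to 6.53, 3.11 and 3.12 (-1.24 ± 0.37, 0.0430), was not scaling-independent and missed the threshold in 9 of the 11 fits with 1 library left out.

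**Figure D1:**
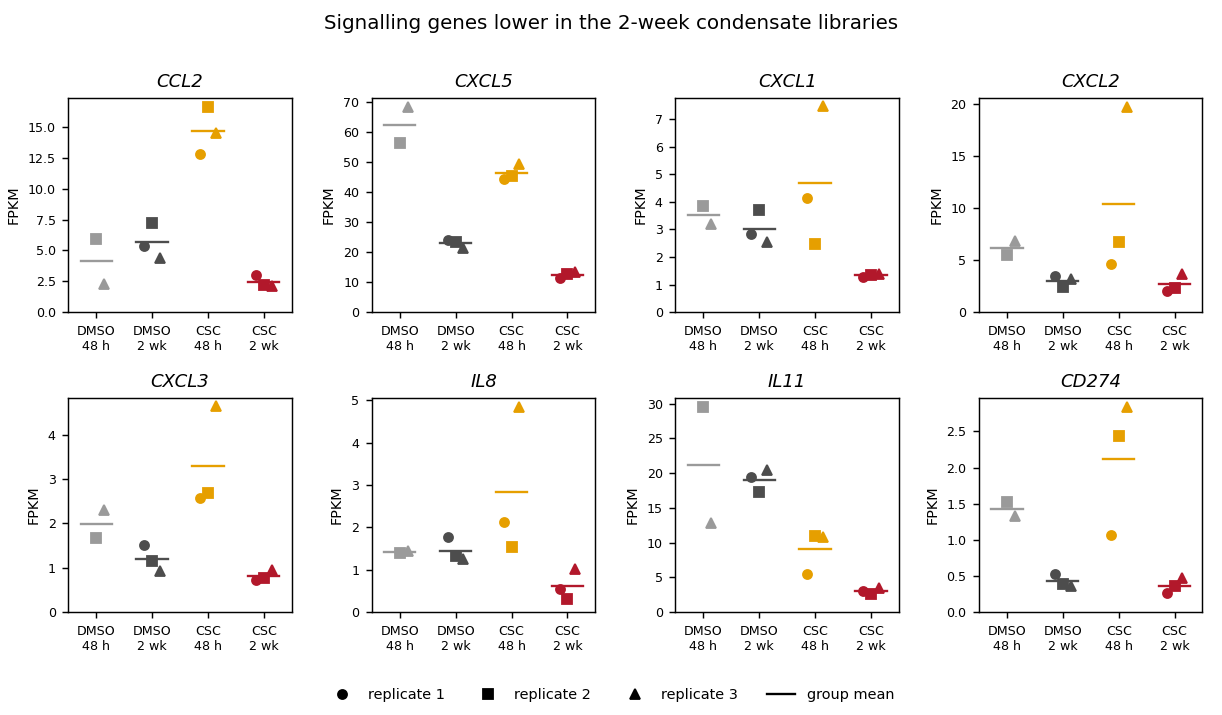
FPKM (linear axes from 0) of 8 genes in the 11 libraries, by treatment and time. Each point is a library, with its shape giving the replicate number, and bars are group means. The CSC libraries of 2 weeks lie below those of 48 hours for all 8, and CSC 48 hours replicate 3 is the highest of its group for CXCL1, CXCL2, CXCL3 and IL8.

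Among 18 NF-kappaB subunits and feedback genes, 3 were lower (16.7%, against 1.45% of all genes) and 1 higher (5.6%, against 12.7%). All 3 falls were scaling-independent. They were NFKB2 and RELB, the subunits of the alternative arm of the pathway, and TRAF1, a signalling adaptor that NF-kappaB induces. RELB went from 8.90, 9.46 and 11.4 FPKM to 6.44, 4.60 and 5.97, a log2 change of -0.76 ± 0.17 (adjusted p = 0.0210), and NFKB2 from 15.1, 20.1 and 22.4 to 12, 8.66 and 12.5 (-0.77 ± 0.20, 0.0297). TRAF1, which met the filter only in the 48-hour group, went from 1.29, 1.18 and 1.91 to 0.601, 0.717 and 0.628 (-0.76 ± 0.19, 0.0293). Early and late libraries did not overlap for any of them. Without CSC 48 hours replicate 2 the adjusted p was 0.0502 for RELB and TRAF1 and 0.0713 for NFKB2. NFKB2 also missed the threshold without CSC 48 hours replicate 3 (0.0577), CSC 2 weeks replicate 1 (0.0717) or replicate 2 (0.0530), and TRAF1 without CSC 48 hours replicate 3 (0.0592), CSC 2 weeks replicate 1 (0.0942) or replicate 3 (0.0662). NFKB1, RELA and NFKBIA, of the canonical arm, had changes of 0.05, 0.12 and 0.17 that did not pass. The median of the list was -0.04, against 0.19 for all genes. With time in DMSO it was -0.02, against 0.09 for all genes. The change differed between CSC and DMSO for 0 members.

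In the EGF receptor family, 4 of 12 tested genes were lower (33.3%, against 1.45% of all genes) and 0 higher (against 12.7%). All 4 were scaling-independent: the ligands TGFA, NRG1 and EREG, and the receptor EGFR itself. TGFA went from 5.70, 6.28 and 5.56 FPKM to 3.08, 3.60 and 3.57, a log2 change of -0.70 ± 0.11 (adjusted p = 0.00675). NRG1, a ligand of ERBB3 and ERBB4, went from 78.3, 92.1 and 89.2 to 50.8, 54.3 and 55.9 (-0.68 ± 0.12, 0.0126). EGFR went from 62.2, 73.2 and 76.0 to 42.9, 45.5 and 46.2 (-0.64 ± 0.14, 0.0186). Each late library was below each early one. Without CSC 2 weeks replicate 1 the adjusted p of EGFR was 0.0636, and without CSC 48 hours replicate 2 it was 0.0531. AREG and HBEGF, other ligands of the receptor, had changes of -0.05 and -0.23 that did not pass. EREG, the ligand epiregulin, went from 43.3, 53.5 and 86.5 to 28.6, 39.0 and 38.5 (-0.73 ± 0.21, 0.0387). It missed the threshold in 7 of the 11 fits with 1 library left out, with a highest adjusted p of 0.137 without CSC 2 weeks replicate 1. The median of the list was 0.04. With time in DMSO it was -0.14, against 0.09 for all genes. In DMSO 0 members were called, and 0 had a called difference between CSC and DMSO.

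Of 16 feedback genes of the ERK cascade 0 were higher and 2 lower (12.5%, against 1.45% of all genes), the phosphatase gene DUSP5 (-0.49 ± 0.15, adjusted p = 0.0446) and the AP-1 subunit gene FOSL1 (-1.12 ± 0.35, 0.0481). Of 22 immediate early genes 3 were lower (13.6%; FOSL1, FOSL2 and CYR61) and 1 higher (NR4A1, 0.63 ± 0.17, 0.0361), the latter 4.5% of the list against 12.7% of all genes. FOS, JUN and MYC, the best known of these genes, had changes of 0.37, -0.43 and 0.03 that did not pass. The medians of the ERK and immediate early lists were -0.04 and 0.04 in CSC, and -0.04 and 0.08 with time in DMSO. In both lists the change differed between CSC and DMSO for 0 members. DUSP5, FOSL1, FOSL2 and NR4A1 each missed the threshold in at least 6 of the 11 fits with 1 library left out, with a highest adjusted p of 0.103, 0.136, 0.101 and 0.124, and of these calls those of DUSP5 and FOSL2 were scaling-independent.

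Of 20 tested YAP and TAZ genes, 6 were lower (CYR61, ANKRD1, AXL, CRIM1, IGFBP3 and DLC1), all scaling-independent, and 1 was higher (YAP1). That is 30.0% lower, against 1.45% of all genes, and 5.0% higher, against 12.7%. The median was -0.26, and 18 of 20 lay below the median of all genes. With time in DMSO the median was -0.07, against 0.09 for all genes. The change differed between CSC and DMSO for 0 members of this list. ANKRD1, a nuclear cofactor, met the filter only in the 48-hour group. It went from 2.17, 2.40 and 3.86 FPKM to 0.842, 0.619 and 1.13, a log2 change of -1.26 ± 0.21 (adjusted p = 0.0105). CYR61, a secreted matricellular protein, went from 25.6, 41.3 and 77.6 to 15.7, 17.0 and 20.4 (-1.28 ± 0.31, 0.0261), and its adjusted p was 0.0911 without CSC 2 weeks replicate 1 and 0.0573 without CSC 48 hours replicate 2. The groups did not overlap for either gene, and the early values of CYR61 differed more among themselves than the late ones. YAP1 went from 15.2, 14.6 and 15.3 to 22.0, 20.2 and 21.1 (0.48 ± 0.09, 0.0147), and was not called with a common sum of FPKM (0.228). AXL, CRIM1 and DLC1 missed the threshold in 8, 9 and 7 of the 11 fits with 1 library left out. CTGF, another well-known target, had a change of -0.27 that did not pass.

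The axis of insulin-like growth factors held changes in both directions, 6 higher (31.6%, against 12.7% of all genes) and 2 lower (10.5%, against 1.45%) of 19 tested, with a median of 0.29, against 0.19 for all genes. IGF2, a fetal growth factor, stood at 1.86, 1.07 and 1.54 FPKM at 48 hours and at 8.53, 9.47 and 8.35 at 2 weeks, a log2 change of 2.24 ± 0.15 (adjusted p = 1.15e-05). The late libraries were all above the early ones by a wide margin. Its neighbour in the same imprinted region, the noncoding H19, met the filter only in the 2-week group. H19 went from 0.315, 0.245 and 0.760 to 2.13, 1.69 and 1.3 (1.25 ± 0.25, 0.0157). Its adjusted p was 0.0615 without CSC 2 weeks replicate 1. IGFBP3, which binds and holds the growth factors and is also on the YAP list, went from 44.5, 51.0 and 53.4 to 23.7, 27.2 and 20.1 (-1.06 ± 0.14, 0.00259). IGFBP3 was at 123 and 92.6 FPKM in the DMSO libraries of 48 hours and at 112, 108 and 99.5 in those of 2 weeks, above all CSC libraries. IGFBP2, IGFBP4 and IGFBP6 were higher by 0.58, 0.54 and 0.54 on the log2 scale, none of them scaling-independent. IGFBP7 had a change of -0.46. The 2 called falls of the list were both scaling-independent. IGFBP2, IGFBP4, IGFBP6 and IGFBP7 missed the threshold in 2, 9, 2 and 10 of the 11 fits with 1 library left out.

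In the TGF-beta and BMP list, 6 of 22 genes were higher (27.3%, against 12.7% of all genes) and 1 lower (4.5%, against 1.45%). The median was 0.14, or -0.05 relative to all genes. TGFBR1, the type I receptor for TGF-beta, went from 18.9, 19.8 and 19.4 FPKM to 56.9, 69.4 and 54.6, a log2 change of 1.61 ± 0.11 (adjusted p = 1.15e-05). INHBB, a subunit of activin B, went from 11.7, 8.27 and 8.56 to 19.8, 22.3 and 17.4 (1.03 ± 0.14, 0.00346). FST, which encodes the activin antagonist follistatin, went the other way, from 4.29, 4.25 and 3.02 to 1.71, 1.65 and 1.69 (-0.98 ± 0.18, 0.0147). None of these groups overlapped and all 3 calls were scaling-independent. The same genes changed in the DMSO libraries between the times, by 1.96 for TGFBR1 (adjusted p = 1.61e-05), 1.08 for INHBB (0.00885) and -1.39 for FST (0.00890).

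S100P, a calcium-binding protein, went from 1.57, 0.775 and 2.73 FPKM to 19.5, 14.9 and 10.1, a log2 change of 2.86 ± 0.46 (adjusted p = 0.00771). KRT4, a keratin of stratified mucosa, met the filter only in the 2-week group. It went from 0.681, 0.210 and 0.617 to 5.32, 3.56 and 3.94 (2.27 ± 0.23, 4.30e-04). SCNN1A, the alpha subunit of the epithelial sodium channel that clears fluid from the alveolus, went from 1.28, 0.778 and 1.67 to 5.58, 7.14 and 5.63 (1.95 ± 0.19, 2.31e-04). Each late library was above each early one for all 3 genes.

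SLPI, the secretory leukocyte protease inhibitor of airway fluid, met the filter only in the 2-week group. It went from 0.626, 0.307 and 1.36 FPKM to 5.17, 5.67 and 3.25 (2.09 ± 0.30, adjusted p = 0.00449). LCN2, a siderophore-binding defence protein, stood at 1.03 and 1.07 in replicates 1 and 3 and was listed at 0 in replicate 2 at 48 hours, and at 1.97, 4.55 and 3.84 at 2 weeks (1.83 ± 0.40, 0.0197). LCN2 was not called with a common sum of FPKM (0.0539) or without CSC 2 weeks replicate 3 (0.0530). In the list of mucins and airway defence, 4 of 9 tested genes were higher (SLPI, LCN2, SPDEF and MUC1; 44.4%, against 12.7% of all genes) and 0 lower, with a median of 0.67, and of these SLPI was scaling-independent. SPDEF and MUC1 each missed the threshold in 8 of the 11 fits with 1 library left out. MMP7, a matrix protease made by injured lung epithelium, went from 8.79, 4.84 and 11.6 to 23.9, 29.9 and 22.6 (1.61 ± 0.30, 0.0147), with no overlap. SULT2B1, a sterol sulfotransferase, went from 2.61, 1.66 and 4.29 to 9.52, 9.73 and 11 (1.73 ± 0.21, 0.00155). SNURF met the filter only in the 2-week group. It was at most 0.0211 FPKM at 48 hours and stood at 5.48, 4.33 and 6.04 at 2 weeks. However, SNURF overlaps SNRPN, with which its reads may be shared, and is uncertain.

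Of 14 liver-type secreted proteins 5 were higher (APOH, FGA, SERPINA3, SERPINA6 and F2; 35.7%, against 12.7% of all genes) and 0 lower, with a median of 0.77, and 13 of 14 lay above the median of all genes. APOH, a phospholipid-binding apolipoprotein, went from 1.83, 0.636 and 3.15 FPKM to 8.72, 11.2 and 7.81 (2.18 ± 0.35, adjusted p = 0.00765) and was the scaling-independent member. FGA, SERPINA3, SERPINA6 and F2 missed the threshold in 8, 5, 7 and 6 of the 11 fits with 1 library left out. Of 13 complement genes 5 were higher (38.5%) and 0 lower, with a median of 0.56. CFD, the protease factor D, went from 4.49, 3.58 and 4.70 to 11.5, 10.1 and 10.9 (1.26 ± 0.12, 2.31e-04). C1S, a protease of the classical pathway, went from 6.99, 5.31 and 11.9 to 19.8, 20.2 and 14.8 (1.19 ± 0.22, 0.0147), with an adjusted p of 0.0507 without CSC 2 weeks replicate 1. The medians of both lists were also positive with time in DMSO, at 1.05 and 0.89.

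**Figure D2:**
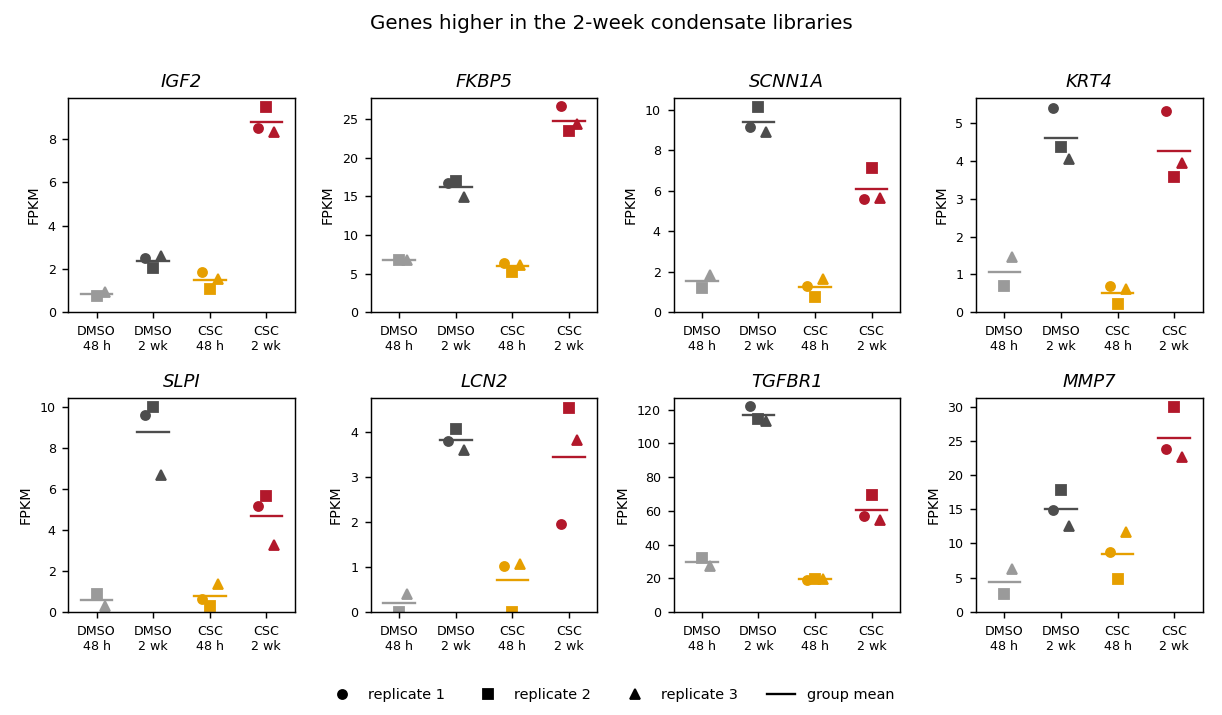
FPKM (linear axes from 0) of 8 genes higher in the 2-week CSC libraries, by treatment and time. Points are libraries with shapes for the replicate number, and bars are group means. The late CSC libraries lie above the early ones for all 8, and the DMSO libraries of 2 weeks also lie above those of 48 hours.

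FKBP5, a chaperone of steroid receptors and a sensitive glucocorticoid target, went from 6.41, 5.21 and 6.17 FPKM to 26.6, 23.4 and 24.3, a log2 change of 1.98 ± 0.11 with the smallest p of the comparison (adjusted p = 1.65e-06). ANGPTL4, an inhibitor of lipoprotein lipase, went from 6.37, 8.38 and 10.4 to 22.7, 22.8 and 20.6 (1.37 ± 0.17, 0.00160). Both were scaling-independent and their groups lay well apart. PDK4, a kinase that shuts pyruvate dehydrogenase, went from 6.78, 2.60 and 11.6 to 19.5, 21.4 and 20.3 (1.69 ± 0.43, 0.0295). Its early libraries were spread widely, and it was not called with a common sum of FPKM (0.0847) or without CSC 48 hours replicate 2 (0.0685), CSC 2 weeks replicate 1 (0.0849) or CSC 2 weeks replicate 3 (0.0659).

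In several large lists most calls depended on the scaling. Of 79 cytosolic ribosomal protein genes 64 were higher, of 76 respiratory chain subunits 49, of 38 proteasome subunits 12, and of 37 NRF2 targets 24, with 0 lower in each, where 12.7% of all genes were higher. Their medians lay 0.37, 0.31, 0.20 and 0.33 above that of all genes. Under all 4 scalings 0 ribosomal, 2 respiratory chain, 0 proteasome and 0 NRF2 genes were called, and with the length trend removed 15, 3, 0 and 7. The criterion of all 4 scalings was stricter for rises than for falls. The ribosomal list had a median of 1915 bases of transcript and the respiratory chain list of 1426, against 3856 for all genes. Relative to the mean of all libraries, the ribosomal median was 0.69 in CSC 2 weeks replicate 1, 0.19 in replicate 2 and 0.36 in replicate 3. Without replicate 1 it stayed 0.26 above the median of all genes. Whether transcript length, the scaling or the library itself carries these rises was not tested.

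GCLC, the rate-limiting enzyme of glutathione synthesis, went from 40.5, 29.8 and 42.4 FPKM to 71.0, 63.1 and 64.6, a log2 change of 0.83 ± 0.14 (adjusted p = 0.0119). The groups did not overlap, and it was called with median-of-ratios scaling (0.0310) and a common sum of FPKM (0.0398) but not with quantile normalization (0.0591). NQO1, a quinone reductase under both NRF2 and AHR, went from 342, 282 and 306 to 504, 397 and 406 (0.49 ± 0.14, 0.0376). NQO1 was not called with a common sum (0.256) and missed the threshold in 9 of 11 fits with 1 library left out, with a highest adjusted p of 0.118. HMOX1, heme oxygenase, had a change of 0.31 (adjusted p = 0.133), and SLC7A11, the cystine importer, of -0.22.

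**Figure D3:**
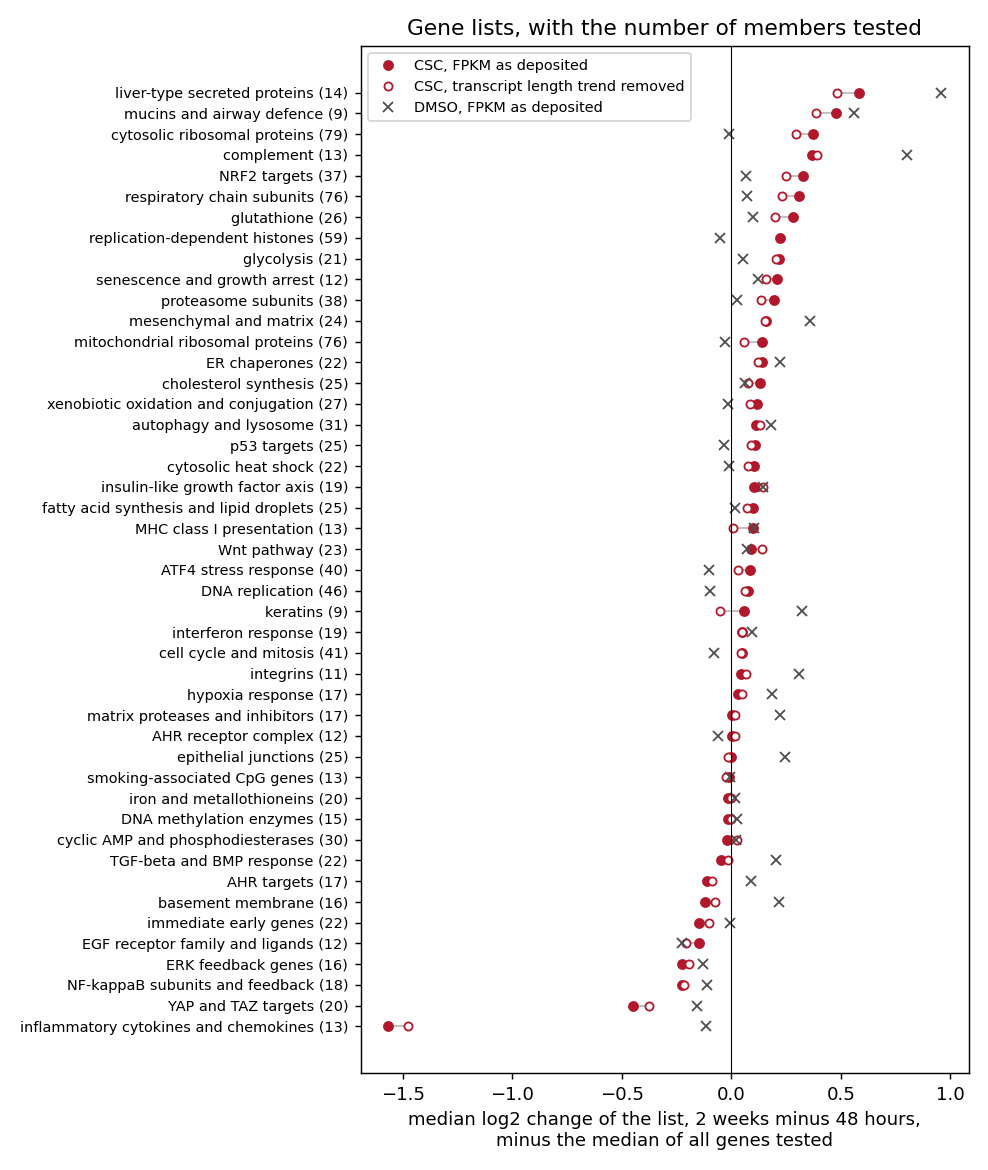
Median log2 change from 48 hours to 2 weeks of each gene list minus the median of all genes tested, for lists with at least 9 members. Filled circles are CSC with FPKM as deposited, open circles CSC with a trend on transcript length removed (left out where under 80% of members had a length) and crosses DMSO. Inflammatory cytokines lie furthest to the left at -1.57 in CSC, and liver-type secreted proteins furthest to the right at 0.58.

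CYP1A1, CYP1B1, AHRR and TIPARP, the core AHR targets, did not pass the test between the times. CYP1A1, the classical target oxidase, was at 1.88, 0.698 and 3.81 FPKM at 48 hours and at 1.73, 1.95 and 1.44 at 2 weeks, with a change of -0.07 (95% interval -0.84 to 0.69, adjusted p = 0.904). CYP1B1 was at 50.5, 26.0 and 64.8 and then at 59.7, 72.1 and 53.8 (0.48, interval -0.08 to 1.04, 0.204). TIPARP, an ADP-ribosyltransferase that restrains the receptor, was at 47.2, 45.8 and 50.7 and then at 41.3, 47.0 and 51.1 (-0.05, interval -0.33 to 0.24, 0.822). Early and late libraries overlapped for all of these, and the DMSO libraries of both times lay below them at 0.0415 to 0.217, 5.43 to 12.6 and 8.20 to 12.9 FPKM. CYP1A1 had its highest and its lowest CSC value at 48 hours, so the interval of its change is wide.

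AHRR, the repressor that AHR induces, was at 1.91, 0.867 and 2.20 FPKM and then at 2.54, 2.34 and 2.33 (0.48, 95% interval -0.03 to 1.00, adjusted p = 0.165), without overlap. AHR had a change of -0.10 (interval -0.33 to 0.14, adjusted p = 0.530). Of 17 tested AHR-responsive genes 1 was higher (NQO1; 5.9%, against 12.7% of all genes) and 2 lower (FOSL2 and EREG; 11.8%, against 1.45%), and of 12 genes of the receptor complex 1 was lower (RELB, 8.3%). GREM1, which encodes the BMP antagonist gremlin, went from 18.5, 18.2 and 23.5 to 27.8, 30.5 and 27.7 (0.51 ± 0.11, 0.0209), with no overlap. GREM1 was not called with a common sum of FPKM (0.357) or without CSC 48 hours replicate 1 (0.0514), CSC 48 hours replicate 2 (0.0617) or CSC 2 weeks replicate 1 (0.0597). In DMSO it stood at 6.01 and 5.39 and then at 4.53, 4.03 and 4.46.

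**Figure D4:**
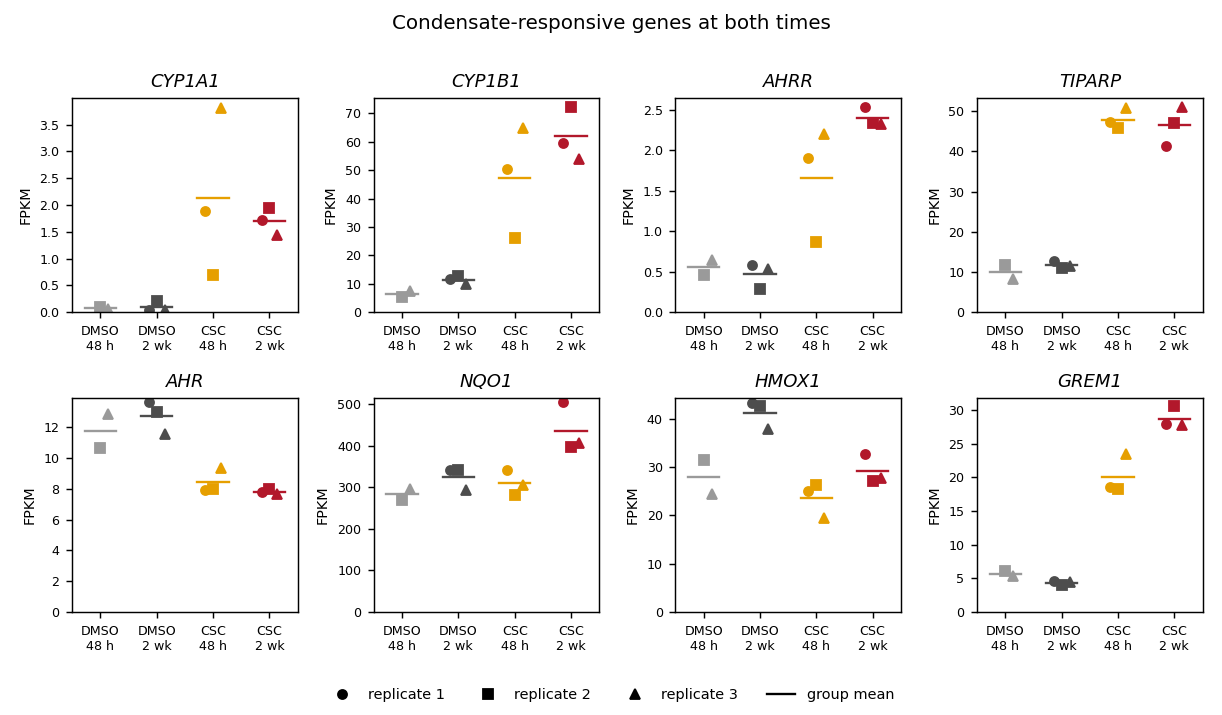
FPKM (linear axes from 0) of CYP1A1, CYP1B1, AHRR, TIPARP, AHR, NQO1, HMOX1 and GREM1 by treatment and time. Points are libraries with shapes for the replicate number, and bars are group means. CYP1A1, CYP1B1, AHRR, TIPARP and GREM1 are higher in every CSC library than in every DMSO library, and the CSC groups of both times overlap for CYP1A1, CYP1B1, TIPARP and AHR.

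Of 41 cell cycle genes 5 were higher (12.2%, near the 12.7% of all genes) and 0 lower (median 0.24), and of 15 DNA methylation enzymes 0 were called (median 0.17), by limma over all genes. Of 40 genes of the ATF4 stress response 0 were called. In that list CSC 48 hours replicate 3 had a median of 0.59 relative to the mean of all libraries, against -0.27 and -0.18 in replicates 1 and 2. Without it the median of the ATF4 list relative to all genes was 0.38, and with it 0.08. CSC 48 hours replicate 3 also stood apart in the cell cycle list, with a median of -0.35 relative to the mean of all libraries against 0.00 and -0.01 in replicates 1 and 2. Without it the median of the list lay at -0.09 relative to all genes, and with it at 0.05. Of 24 mesenchymal and matrix genes 8 were higher (33.3%, against 12.7% of all genes) and 0 lower (median 0.34, and 0.45 with time in DMSO), among them SPARC (0.74 ± 0.14, adjusted p = 0.0157) and COL1A1 (0.80 ± 0.15, 0.0151, and 0.0540 without CSC 2 weeks replicate 1), and 0 were scaling-independent. COL1A1, at 3.73 to 4.66 FPKM early and 6.93 to 9.10 late, is also the largest part of the fibroblast marker sum, which was higher with it. The part of other cells in these values was not tested.

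The change with time was then set beside that of the DMSO cells. The 2 changes share no library but share the estimate of spread. In DMSO 79 genes were higher (0.644%) and 13 lower (0.106%) at 2 weeks, 0.75% together, with a median change of 0.09. Of the 1560 genes higher in CSC, 1430 (91.7%) had a positive change in DMSO, as had 68.4% of all genes. Of the 178 genes lower in CSC, 148 (83.1%) had a negative change in DMSO, as had 31.6% of all genes. Calls in both were 46 rises and 7 falls, and 2 genes, CEACAM6 and GABRE, were lower in CSC and higher in DMSO. SLPI had a change of 3.11 in DMSO (adjusted p = 7.33e-04) and 2.09 in CSC, SCNN1A of 2.30 (2.49e-04) and 1.95, ANGPTL4 of 1.81 (5.76e-04) and 1.37, and FKBP5 of 1.20 (3.78e-04) and 1.98.

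The difference between the change in CSC and the change in DMSO passed for 3 genes (0.0244%), all more negative in CSC, and for 0 more positive, by limma, while 839 genes had an unadjusted p under 0.05. Under the other settings 0 to 50 were more positive and 0 to 33 more negative, the highest of both with library weights. The 3 genes were CCL2, CEACAM6 and GABRE. CEACAM6, a surface glycoprotein of mucosal epithelium, went from 7.64 and 6.92 FPKM to 29.7, 30.1 and 26.1 in DMSO, and from 17.6, 7.48 and 9.71 to 5.46, 7.58 and 4.95 in CSC. Each late DMSO library was above each CSC library, and CSC 48 hours replicate 1 was the highest of the CSC libraries. Its change in CSC was -0.83 (adjusted p = 0.0403), with overlapping groups, and -0.50 (0.0799) without that library. GABRE, a subunit of a GABA receptor, went from 7.29 and 7.87 to 11.2, 12 and 14.4 in DMSO and from 6.83, 5.88 and 6.46 to 3.33, 4.41 and 4.18 in CSC. All 3 missed the threshold with quantile normalization (0.0549 for CCL2 and CEACAM6, 0.133 for GABRE), and GABRE also with median-of-ratios scaling (0.113), a common sum (0.133) or small RNA genes left out (0.137). With the deposited scaling the differences were -2.89 ± 0.39 for CCL2 (adjusted p = 0.0374), -2.73 ± 0.36 for CEACAM6 (0.0374) and -1.31 ± 0.19 for GABRE (0.0474). Leaving out any DMSO library of 2 weeks ended all 3 calls, with adjusted p between 0.0926 and 0.163, as did leaving out DMSO 48 hours replicate 3 (0.0734 to 0.196), CSC 2 weeks replicate 1 (0.0550) or CSC 2 weeks replicate 3 (0.147). CCL2 also missed it without CSC 48 hours replicate 1 (0.0728) or CSC 2 weeks replicate 2 (0.0984), CEACAM6 without DMSO 48 hours replicate 2 (0.0964), and GABRE when CSC 48 hours replicate 1 (0.116), CSC 2 weeks replicate 2 (0.0649) or DMSO 48 hours replicate 2 (0.128) was left out.

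For the genes that follow the difference did not pass as tested over all genes with equal weights. The 95% interval of the difference was 0.44 to 1.12 for FKBP5 (adjusted p = 0.293), -1.50 to -0.59 for IGFBP3 (0.293), 0.62 to 1.63 for IGF2 (0.306), 0.50 to 1.24 for GREM1 (0.293) and -0.78 to -0.06 for CXCL5 (0.690), before adjustment over all genes. With library weights it passed for FKBP5 (0.0350), IGFBP3 (0.0115), IGF2 (0.0459) and GREM1 (0.00696). Those weights were 5.53 for CSC 2 weeks replicate 3 against 0.448 and 0.369 for replicates 1 and 2. The late CSC values in that fit thus rested mostly on replicate 3. For GREM1 the difference also passed without CSC 48 hours replicate 3 (0.0344). The interval was -0.96 to 0.26 for SCNN1A and -0.52 to 0.41 for INHBB.

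**Figure D5:**
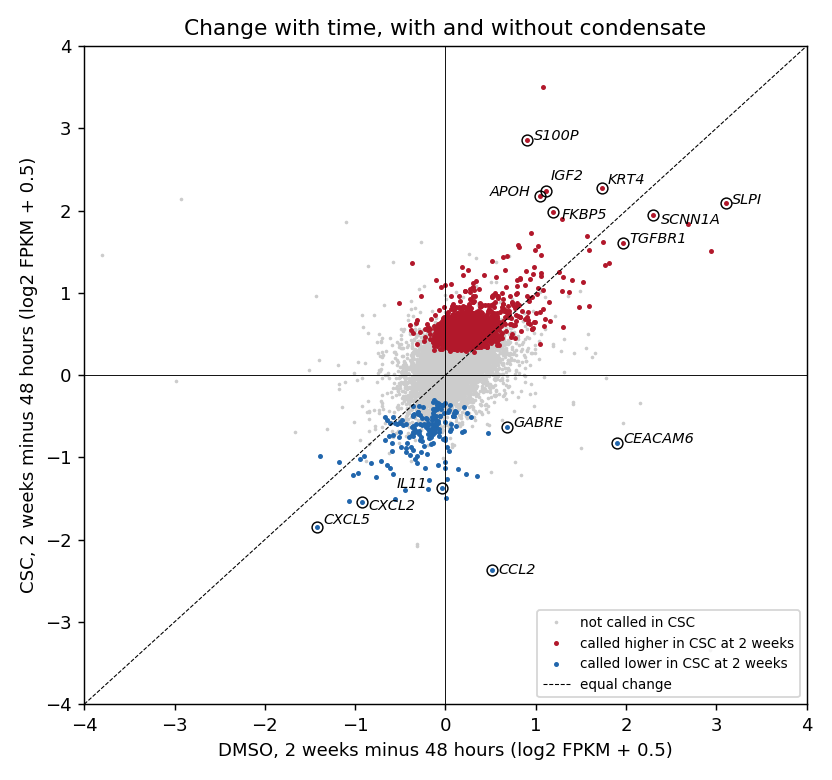
Log2 change from 48 hours to 2 weeks in DMSO (horizontal axis) and in CSC (vertical axis) for the 12271 genes tested. Red points were called higher and blue points lower in CSC, grey points were not called, and the dashed line marks equal change. CCL2, CEACAM6 and GABRE lie below 0 in CSC and above 0 in DMSO, while KRT4, SCNN1A, SLPI and TGFBR1 lie above 0 in both.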

How the data were processed

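RNA of A549 cells was depleted of ribosomal RNA (Ribo-Zero Gold) and sequenced on an Illumina HiSeq2000, per the labels' protocols. TopHat2 version 2.0.9, CASAVA version 1.7.1a5 and hg19 are listed in the submitters' processing notes. The quantifier, the annotation and any strand setting were not given in the sources used here. The authors deposited FPKM values with bounds, in 25275 lines per library for 23609 symbols. Values were summed over loci (548 symbols had more than 1), and 1 gene with a failed estimate was left out. FPKM are not counts, so no count model was used.

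The 12271 genes that reached 1 FPKM in 2 or more CSC libraries were tested on log2(FPKM + 0.5). The test was limma's moderated linear model with a mean trend (limma 3.58.1, R 4.3.3), with all 11 libraries in 1 fit of 4 groups and no replicate block. Calls had a p under 0.05 after Benjamini-Hochberg adjustment. Intervals are 95% intervals of this fit. No 2 libraries held identical values (0 of 55 pairs). The procedure was tested on simulated data. Alternatives were other pseudocounts, filters, scalings, eBayes options, library weights, the replicate block, leaving out small RNA genes or each library, and, added after seeing the data, removing a lowess trend (span 0.3) on the longest GENCODE transcript.

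The comparison and the 47 gene lists were chosen with earlier results of these data known. Named genes are the 12 largest rises and 12 largest falls that were called, with groups not overlapping, a mean CSC FPKM of at least 1, 1 locus and no small RNA prefix, up to 3 members per list with the smallest p, the 5 largest called differences each way, and CYP1A1, CYP1B1, AHRR, TIPARP, AHR, NQO1, HMOX1, GREM1 and IGF2. Not every gene that met this rule is described. FGL1 is among those left out, with a log2 change of 1.88 (limma adjusted p = 0.0516) without CSC 2 weeks replicate 1. Other list members are named to complete a count or for their known role, after their values were seen. Promoter windows are RefSeq's on GRCh38.p14.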

Additional observations from a re-analysis of the deposited data

Results flagged for a closer look

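The change with time differed between CSC and DMSO for CCL2 (adjusted p = 0.0374), CEACAM6 (0.0374) and GABRE (0.0474), by a limma test of the difference itself with Benjamini-Hochberg adjustment over all genes tested. All 3 had a negative difference under every setting tried. The adjusted p of CCL2 ran from 0.0011 without DMSO 48 hours replicate 2 to 0.191 with no filter on low values, that of CEACAM6 from 0.000966 with library weights to 0.191, and that of GABRE from 0.00234 to 0.196 without DMSO 48 hours replicate 3.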

How the results depend on the processing

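Against 1560 genes higher and 178 lower, 689 and 100 were called with no filter, 154 higher with median-of-ratios scaling, 129 higher with quantile normalization, 86 and 468 with a common sum, 4764 and 497 with library weights, 57 and 21 in a fit of the 6 CSC libraries alone, 46 and 15 at an adjusted p under 0.01, 78 and 711 with small RNA genes, RMRP and RPPH1 left out, and 195 and 269 with the length trend removed. Leaving out 1 library gave 155 to 2481 higher and 39 to 176 lower, and 0 to 5 more positive and 0 to 5 more negative differences from DMSO. Of those differences, 3 more positive and 0 more negative were called with no filter, 1 more positive with an FPKM of at least 5 or with the filter over all 11 libraries, 50 and 33 with library weights, and 0 more negative with quantile normalization, without the eBayes trend or at an adjusted p under 0.01. With the replicate number as a block, 2116 were higher and 261 lower, with 1 more positive and 4 more negative difference. Deviations of same-numbered CSC libraries correlated at 0.33, -0.063 and 0.033, and those of other pairs at -0.215 to 0.183. With 3 libraries per group these correlations cannot settle whether the numbers pair the samples. The median over all genes moved from 0.19 to 0.004 with median-of-ratios scaling and to -0.093 with a common sum. Signs changed for TIPARP (0.086 with library weights, and -0.119 to 0.034 with 1 library left out) and HMOX1 (-0.027 with small RNA genes left out). CYP1A1 turned positive without CSC 48 hours replicate 3 (0.379) or CSC 2 weeks replicate 3 (0.017), and was at -0.545 without CSC 48 hours replicate 2. FTL, the ferritin light chain, went from 0.60 to 0.0 with quantile normalization. The cause of these shifts was not tested. The depth in fragments is unknown.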

Other observations

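Chosen after their values were seen, 5 genes known to respond to glucocorticoids, as FKBP5 does, had mixed changes from 48 hours to 2 weeks in CSC. CEBPD, a transcription factor, went from 21.2, 14.2 and 24.5 FPKM to 67.9, 36.8 and 44.2, a log2 change of 1.28 (limma adjusted p = 0.0139). KLF9, another, went from 1.07, 0.390 and 2.37 to 4.64, 3.66 and 4.38 (1.57, 0.0186). PER1, of the circadian clock, went from 3.18, 2.28 and 5.55 to 7.80, 6.88 and 8.06 (1.03, 0.0176). TSC22D3 and SGK1 had changes of 0.66 (0.396) and -0.22 (0.468) that did not pass, and TSC22D3 stood at 18.5 FPKM in CSC 48 hours replicate 3 against 2.95 and 1.99 in the other two. One left-out library ended the calls of KLF9 (highest adjusted p 0.0686) and PER1 (0.0603).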
